A study of Mus musculus with 121 samples.

Results

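The fourth RNA collection of mouse fibroblasts kept under opposite feeding-fasting cycles was compared between 2 groups named by the sample titles, 4 libraries titled LH and 4 titled HL, out of 62 libraries in all. Both sequencing runs of each library were summed, and every gene with at least 1 count per 1000000 counts (CPM) in at least 3 of the 8 libraries was tested, which left 11627 of 31053 genes listed. The cells are an immortalized ear fibroblast line at expansion passage 25 that carries the PER2::LUC sv knock-in, a luciferase fusion of the clock protein PER2, so the groups share 1 line and 1 genotype. In LH the cells received 3 daily cycles of 12 h in medium low in glucose and insulin followed by 12 h in high medium, and in HL the order was reversed, while HH cells stayed in high medium at each change. The fourth collection was 12 h after the first, with a labelled clock hour of 20 in LH and 8 in HL. The first LH collection is labelled with hour 20 too, so in LH the labelled hours and this interval are in conflict. The comparison asks which transcripts differ between cells that ended the cycles in high medium and cells that ended them in low medium. Both are compared at the same time after the cycles ended. The study began to collect RNA after 12 h of free running that followed the cycles, so no library was taken directly at their end. The methods of the study call its replicates biological unless stated otherwise, while the labels do not say which libraries came from separate cultures, so p-values measure the spread between these libraries.

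The names of all 8 libraries are in conflict. The read summary that came with the study lists the library numbers of the 4 titled LH as HL, replicates 1 and 2 from collection 3 and replicates 3 and 4 from collection 4. It lists those of the 4 titled HL as LH, replicates 1 and 2 from collection 2 and replicates 3 and 4 from collection 3. By the read summary the treatments would be exchanged, the collections 4 h apart, and each title group a mixture of a pair of collections. In the second run, 8 of 8 deposited totals were identical to the summary's read count under the same library number, and 0 of 8 to the one under the same title. First-run totals matched neither. The 4 LH libraries have consecutive numbers and the 4 HL libraries a later consecutive run, so position in the numbering and group cannot be told apart. In what follows LH and HL mean the libraries so titled.

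The 8 libraries held 4215033 to 8319236 counts and 12970 to 13807 genes above 0. Replicates of a group differed from each other by 6.80 to 57.3 in chi-square per degree of freedom over 12 pairs, against 1.29 to 1.54 between the runs of a library. None was thus a further sequencing run of another, while these values cannot show whether the cultures were separate. LH replicate 2 stood apart, with correlations of log CPM of 0.925 to 0.947 with the other libraries against 0.964 to 0.985 among these. In it 28.95% of uniquely aligned reads fell on no feature, against 19.1% to 22.8% in the other 7. Fibroblast markers summed to 24310 to 34042 CPM in LH, lowest in replicate 2, and to 33418 to 38798 CPM in HL, with 10 of 11 tested. Macrophage and leukocyte markers summed to at most 25.4 CPM, epithelial markers to at most 4.57 CPM and muscle markers to at most 1.22 CPM. Cdh5, Tie1 and Tek of the endothelial list were at 0 in all 8, and its sum of 119 to 231.1 CPM was almost wholly Kdr, which encodes a VEGF receptor. Sox9 alone carried the chondrocyte list, at 380 to 649 CPM, while Matn3 was at 0 in all 8.

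The circadian clock of fibroblasts is a transcriptional loop. CLOCK and BMAL1 (the product of Arntl) bind E-boxes and drive the Per and Cry genes, whose proteins then repress CLOCK and BMAL1, while the nuclear receptors NR1D1 and NR1D2 (REV-ERBs) repress Arntl and the RORs activate it. DBP, TEF and HLF, proteins of the PAR bZIP family, activate genes through D-boxes that NFIL3 (E4BP4) occupies as a repressor, and nutrients and insulin are known to shift this clock in peripheral cells.

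Upstream sequences of 4 clock genes, picked from those with a motif match, are shown to place these elements, from RefSeq on GRCm38.p6. For each gene the first entry with a match was taken. Per2, Dbp and Bhlhe40 were not among the genes with a match. Each run is the 250 bases before the annotated start, 5′ to 3′ on the gene's strand, with motif matches in capitals. Per3 lies at chr4:151044666-151044915 on the minus strand and holds 2 D-boxes, Tef at chr15:81802423-81802672 on the plus strand holds an E-box, Bhlhe41 at chr6:145865421-145865670 on the minus strand holds an E-box, and Nr1d1 at chr11:98775378-98775627 on the minus strand holds an E-prime box.
Per3: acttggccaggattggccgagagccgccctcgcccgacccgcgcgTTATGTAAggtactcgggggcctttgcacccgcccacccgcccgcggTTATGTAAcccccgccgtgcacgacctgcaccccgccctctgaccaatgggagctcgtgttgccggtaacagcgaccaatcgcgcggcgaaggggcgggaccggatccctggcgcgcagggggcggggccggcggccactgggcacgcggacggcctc
Tef: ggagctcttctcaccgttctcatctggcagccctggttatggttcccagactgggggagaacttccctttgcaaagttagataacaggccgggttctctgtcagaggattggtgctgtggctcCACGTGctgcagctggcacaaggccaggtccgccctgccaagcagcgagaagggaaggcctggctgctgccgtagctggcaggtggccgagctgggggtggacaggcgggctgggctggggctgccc
Bhlhe41: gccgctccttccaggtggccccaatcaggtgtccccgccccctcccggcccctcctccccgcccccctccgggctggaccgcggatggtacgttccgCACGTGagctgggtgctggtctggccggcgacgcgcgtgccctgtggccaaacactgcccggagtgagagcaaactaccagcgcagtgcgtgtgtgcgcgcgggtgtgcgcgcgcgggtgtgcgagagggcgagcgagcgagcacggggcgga
Nr1d1: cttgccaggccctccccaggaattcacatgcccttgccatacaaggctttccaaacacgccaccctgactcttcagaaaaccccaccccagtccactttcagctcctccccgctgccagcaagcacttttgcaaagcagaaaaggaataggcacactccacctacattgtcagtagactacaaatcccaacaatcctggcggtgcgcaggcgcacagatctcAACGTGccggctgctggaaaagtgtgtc
The motifs searched on both strands were CACGTG (E-box, which reads alike on both), CACGTT (E-prime box, AACGTG on the other strand) and TTATGTAA (D-box). They did not overlap one another in these windows. Of 20 clock genes tested 18 had an entry, and the E-box was found in 5 of them (Bhlhe41, Ciart, Cry1, Per1 and Tef), the E-prime box in 4 and the D-box in 1. Over 27025 genes with an entry the shares were 6.86%, 4.5% and 0.977%. A match is a description of the letters in the window.

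All 10 repressors of the core clock had a positive log2 fold change (LH minus HL), with a median of 0.50 beside -0.0014 over all genes tested. Of these, 4 were higher in LH at an unadjusted p under 0.05 (Per2, Per3, Bhlhe40 and Bhlhe41), where 2.98% of all genes were, and in 3 the groups did not overlap, where 2.31% of all genes had LH above HL in every library. None of the 10 passed a Benjamini-Hochberg adjusted p of 0.05 in edgeR's quasi-likelihood test, which 1 gene of all did (0.0086%). With DESeq2, which called 15 genes (0.129%), Per2 passed it. Without LH replicate 2 the repressors had 5 genes higher at an unadjusted p under 0.05, beside 4.08% of all genes, none lower beside 4.41%, and a median of 0.62.

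Per2, the period gene to which the luciferase of this line is fused, had 6.10, 3.02, 6.71 and 10.4 CPM in LH replicates 1 to 4 and 0.474, 0.182, 2.32 and 2.04 CPM in HL. The lowest LH library stood above the highest HL library, and HL replicates 1 and 2 held 2 counts and 1 count. How the luciferase fusion affects the reads counted as Per2 at the 3′ end of the transcript was not tested. The log2 fold change was 2.28 ± 0.57 (SE, 4 against 4 libraries), with an adjusted p = 0.61 in edgeR's quasi-likelihood test. Per3, a second period gene, had 9.23, 12.4, 11 and 21.4 CPM in LH and 4.27, 2.37, 8.73 and 4.21 CPM in HL, again without overlap. Its log2 fold change was 1.45 ± 0.37 with adjusted p = 0.61. The annotated span of Per3 overlaps Camta1 on the same strand.

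Bhlhe40 (DEC1), an E-box repressor, had 12.4, 10.8, 12.0 and 10.4 CPM in LH against 7.59, 7.84, 8.38 and 8.17 CPM in HL. The groups did not overlap, at a log2 fold change of 0.50 ± 0.22 and adjusted p = 0.84. Bhlhe41 (DEC2), its close relative, had 33.1, 24.0, 21.7 and 24.4 CPM in LH and 11.6, 9.12, 14.8 and 25.1 CPM in HL. HL replicate 4 lay among the LH libraries, and the log2 fold change was 0.73 ± 0.26 with adjusted p = 0.82. Per1, Cry1, Cry2 and Ciart, which encode further repressors of CLOCK and BMAL1, had log2 fold changes of 0.34 to 0.97 with adjusted p-values of 0.89 to 0.93.

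**Figure D1:**
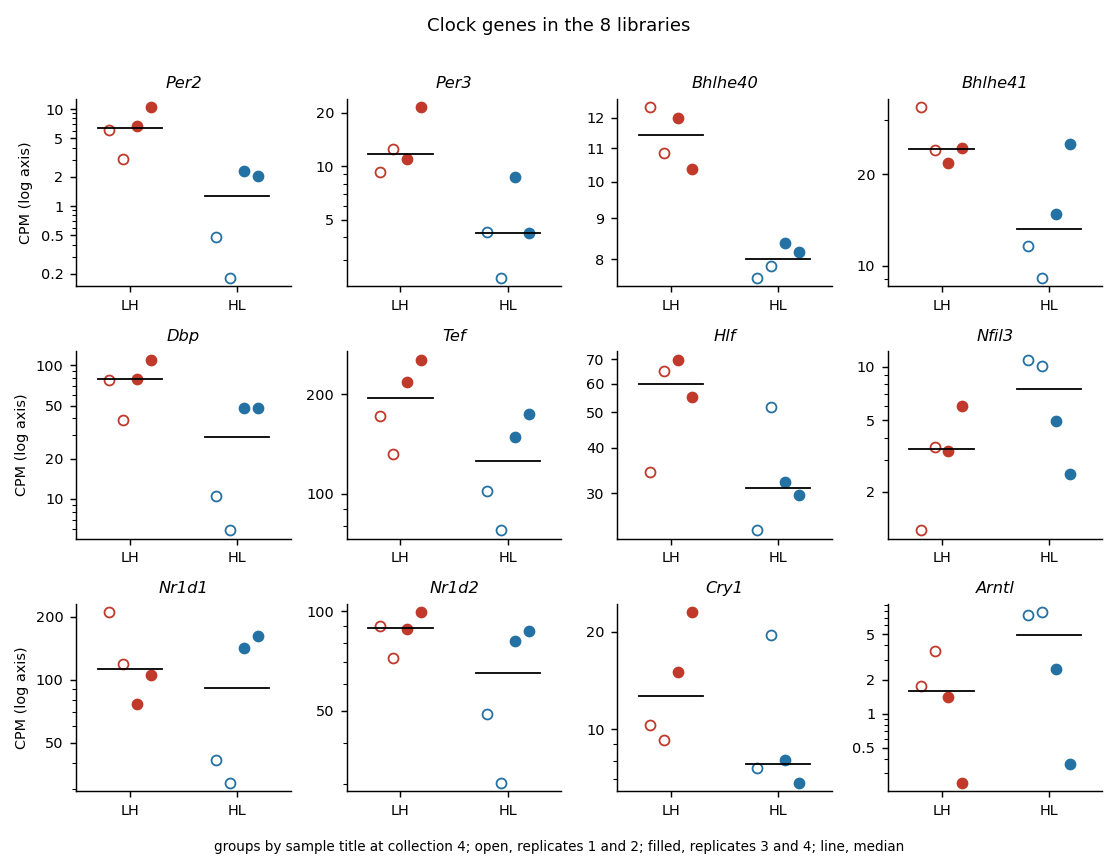
CPM (log axis) of 12 clock genes in the libraries titled LH (red) and HL (blue) at collection 4; open points are replicates 1 and 2, filled points replicates 3 and 4, and lines are medians. Per2, Per3 and Bhlhe40 did not overlap between groups, and the HL points of Dbp, Nr1d1 and Nr1d2 fell into a low pair and a high pair.

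The D-box activators had positive log2 fold changes as well, with overlapping groups and none past the adjusted threshold. Dbp had 77.7, 38.9, 79.0 and 110 CPM in LH and 10.4, 5.84, 48.1 and 48.3 CPM in HL, for a log2 fold change of 1.39 ± 0.47 and adjusted p = 0.78. Its annotated span, like those of Tef, Bhlhe40 and Bhlhe41, overlaps a gene on the opposite strand. For Dbp, LH replicate 2 lay below the higher pair of HL libraries, so the groups overlapped. Tef had 172, 132, 218 and 254.3 CPM in LH and 102, 77.5, 148 and 175 CPM in HL, for 0.61 ± 0.23 and adjusted p = 0.83. Hlf had 34.3, 65.0, 69.8 and 55.1 CPM in LH and 23.7, 51.6, 32.3 and 29.7 CPM in HL, for 0.70 ± 0.25 and adjusted p = 0.81. Nfil3, the repressor at the same elements, had 1.22, 3.55, 3.36 and 6.05 CPM in LH and 10.9, 10.0, 4.99 and 2.52 CPM in HL. Its log2 fold change was -0.96 ± 0.49 with adjusted p = 0.89. Thus 3 of the 4 genes of this list passed an unadjusted p of 0.05, each higher in LH, beside 2.98% of all genes, and none passed the adjusted one.

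Of the 6 tested activators of the loop none had an unadjusted p under 0.05 (1 higher and 1 lower without LH replicate 2). A negative log2 fold change was found in 4, and the median of the 6 was -0.40, or -0.21 without LH replicate 2. Arntl had 1.74, 3.55, 1.41 and 0.247 CPM in LH and 7.35, 7.84, 2.49 and 0.361 CPM in HL. HL replicates 1 and 2 were the 2 highest of the 8 libraries and LH replicate 4 was the lowest, with a log2 fold change of -1.36 ± 0.78 and adjusted p = 0.91. Clock itself had 57.8 to 66.5 CPM in LH and 60.7 to 76.9 CPM in HL, a log2 fold change of -0.17 ± 0.13. Of 8 tested kinases and ubiquitin ligases that act on clock proteins, 1 was higher and 1 lower at an unadjusted p under 0.05, beside 2.98% and 2.76% of all genes. Btrc, an F-box protein of the PER-degrading ligase, was the one higher in LH (1.01 ± 0.39, adjusted p = 0.83). Csnk1d, casein kinase 1 delta, was the one lower (-0.35 ± 0.14, adjusted p = 0.83).

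Nr1d1, the REV-ERB alpha gene, split by replicate pair. It had 210 and 119 CPM in LH replicates 1 and 2, 76.7 and 105 CPM in LH replicates 3 and 4, 41.5 and 32.3 CPM in HL replicates 1 and 2, and 142 and 162 CPM in HL replicates 3 and 4. LH was above HL within the first pair of numbers and below it within the second. Over all 8 libraries the log2 fold change was 0.41 ± 0.42 with adjusted p = 0.94. In replicates 1 and 2 alone it was 2.18 ± 0.30 and in replicates 3 and 4 alone -0.77 ± 0.15, with edgeR adjusted p-values of 0.041 and 0.0012. A test of the difference between the pairs, added after the data were seen, gave -2.95 with an adjusted p of 0.00577, and Nr1d1 was the single gene it called (0.0086% of all). Nr1d1 lies at chr11:98767932-98775333, where Thra runs on the opposite strand, and whether the counting used strand is not given in the sources used here. Nr1d2 (REV-ERB beta) had 89.9, 72.0, 88.1 and 99.2 CPM in LH and 48.9, 30.3, 81.4 and 87.3 CPM in HL, a log2 fold change of 0.47 ± 0.25 with adjusted p = 0.89.

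The pairs of replicates that the read summary assigns to different collections were then set against each other within each title group. In HL the pairs did not overlap in 15 of the 20 clock genes, where 37.5% of all genes did not, and in LH in 8 of 20, where 32% of all genes did not. Between the HL pairs 8 of 17 tested clock genes had p under 0.05, beside 7.76% of all genes, and Nr1d1 and Dbp passed the adjusted threshold, the only genes to do so (2 of 10959, 0.0182%). Dbp was higher in HL replicates 3 and 4 by 2.63 ± 0.27 on the log2 scale and Nr1d1 by 2.08 ± 0.17. Between the LH pairs 3 of 19 tested clock genes had p under 0.05, beside 3.07% of all genes, and no gene passed the adjusted threshold in edgeR, with 338 genes at an unadjusted p under 0.05. The difference between the pairs had p under 0.05 in 6 of the 20 clock genes, beside 4.35% of all.

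LH minus HL was also taken within each pair of numbers. In replicates 1 and 2 alone 2 genes passed the adjusted threshold (0.0183%), Dbp at 2.88 ± 0.39 and Nr1d1. In replicates 3 and 4 alone 14 did (0.127%), among them Dbp at 0.93 ± 0.16, Hlf at 0.98 ± 0.18, Cry1 at 1.33 ± 0.31 and Nr1d1, the last with the opposite sign. These fits hold 2 libraries a group.

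The HH libraries carry the same name in both sources and give a reference course over 6 collections. Nr1d1 in HH had a lowest, median and highest value of 35.8, 43.5 and 50.0 CPM at 4 h, 148, 161 and 163 CPM at 8 h, and 86.7 and 110 CPM in the 2 libraries at 12 h. It had 25.1 to 33.6 CPM at 16 h. HL replicate 1 (41.5 CPM) lay within the HH range of 4 h and HL replicate 2 (32.3 CPM) within that of 16 h, just below that of 4 h. HL replicates 3 and 4 (142 and 162 CPM) lay nearest to the HH values of 8 h. In LH, replicate 1 (210 CPM) lay above every HH library and replicate 2 (119 CPM) between the HH values of 12 h and 8 h. LH replicate 3 (76.7 CPM) lay below the 2 HH values of 12 h and LH replicate 4 (105 CPM) between them. Dbp in HH had 2.44 to 6.83 CPM at 0 h, 3.02 to 5.85 CPM at 4 h, 31.2 to 62.4 CPM at 8 h, 53.9 and 60.1 CPM at 12 h, and 8.93 to 18.8 CPM at 20 h. HL replicate 2 (5.84 CPM) lay within the HH ranges of 0 h and 4 h and HL replicate 1 (10.4 CPM) within that of 20 h. LH replicates 1, 3 and 4 (77.7, 79.0 and 110 CPM) lay above every HH library, and LH replicate 2 (38.9 CPM) within the HH range of 8 h. Per2 in HH had 0.666 to 2.76 CPM at 0 h, 0.622 to 0.930 CPM at 4 h, 0.857 to 4.63 CPM at 8 h and 13.1 and 12.3 CPM at 12 h. It had 5.70 to 19.4 CPM at 16 h and 0.165 to 7.41 CPM at 20 h. HL replicates 1 and 2 (0.474 and 0.182 CPM) lay below the HH range of 4 h and within that of 20 h.

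**Figure D2:**
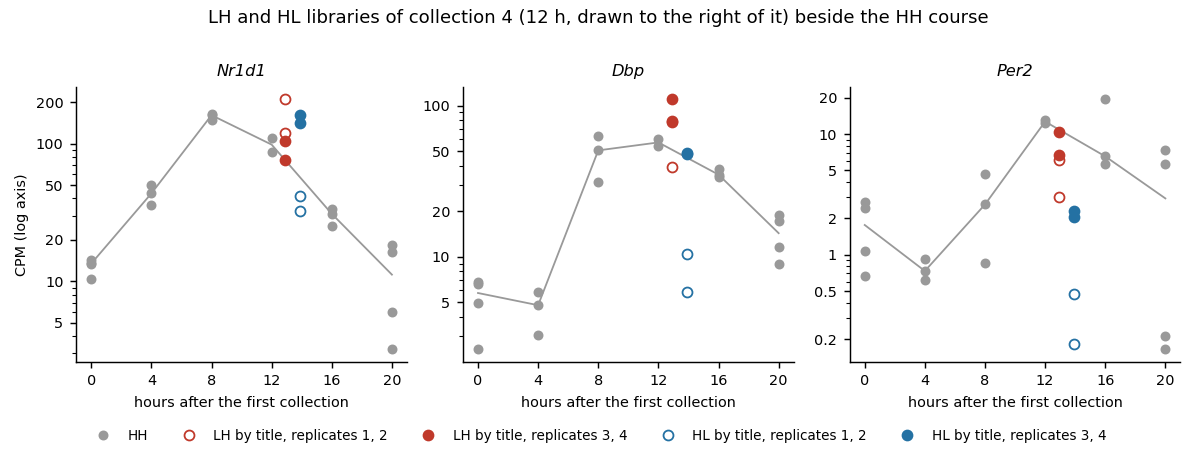
CPM (log axis) of Nr1d1, Dbp and Per2 in HH libraries by hours after the first collection (grey, line through medians), with the 4 LH (red) and 4 HL (blue) libraries titled collection 4 drawn to the right of 12 h; open points are replicates 1 and 2. HL replicates 1 and 2 lie below both HH libraries of 12 h in each of the 3 genes.

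Over the 20 tested clock genes the distance of each library from each HH collection was taken as the root mean square difference of log2(CPM + 1) from the HH mean, as a description. The smallest distance of LH replicates 1 and 2 was to HH at 8 h (0.548 and 0.544) and that of LH replicates 3 and 4 to HH at 12 h (0.447 and 0.365). HL replicates 1 and 2 were nearest to HH at 4 h (0.520 and 0.561), with 0 h next for replicate 2 at 0.603, and HL replicates 3 and 4 nearest to HH at 8 h (0.359 and 0.487). The nearest HH collection was the one that the read summary gives for the library number in 8 of 8 libraries, and the fourth, which the titles give, in 2 of 8. HH cells had another feeding schedule, and no library was regrouped from these distances.

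**Figure D3:**
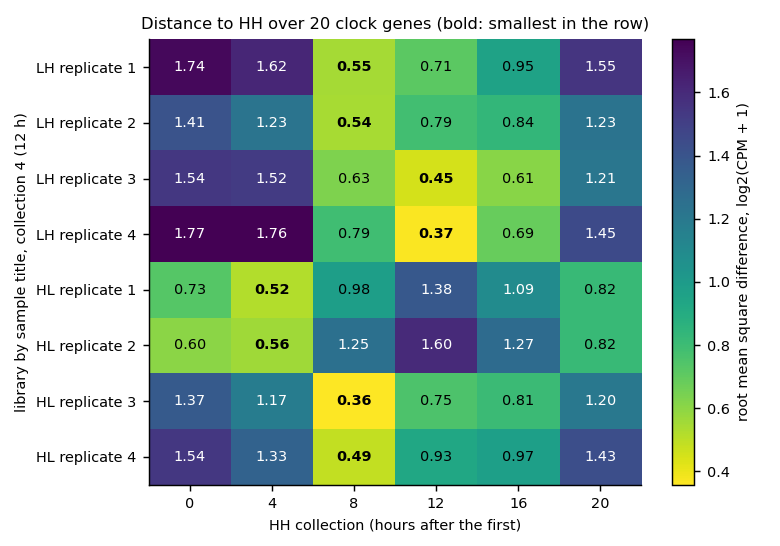
Root mean square difference over 20 clock genes, log2(CPM + 1), between each of the 8 libraries (rows) and the mean of each HH collection (columns, hours after the first); darker cells are farther and bold marks the smallest of a row. The smallest values lie at 8 h for LH replicates 1 and 2 and HL replicates 3 and 4, at 12 h for LH replicates 3 and 4, and at 4 h for HL replicates 1 and 2.

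Over all 11627 genes tested, clock genes included, 1 was called after adjustment in edgeR. 149 genes (1.28%) had an unadjusted p under 0.01, 79 higher and 70 lower in LH, and 668 (5.75%) had one under 0.05, 347 higher and 321 lower (2.76%). LH lay wholly below HL in 177 genes (1.52%).

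The gene called was 2900060B14Rik (ENSMUSG00000107722), annotated as an antisense transcript at chr1:118458652-118459267 on the minus strand (GENCODE M21, GRCm38). It had 280.8, 442, 301 and 279.6 CPM in LH and 105, 111, 144 and 160 CPM in HL, 326 ± 78.1 against 130 ± 26.3 (mean ± SD, n = 4 each). The groups stood well apart, and it rose by 1.32 ± 0.19 on the log2 scale in LH, with an edgeR adjusted p of 0.0349. Clasp1, a microtubule-binding protein gene, runs on the opposite strand there and Gm22710 on the same strand, so its reads cannot be assigned to 1 transcript with certainty. In the 19 HH libraries it ranged from 61.2 to 275.2 CPM and in the other 35 LH and HL libraries from 63.6 to 459 CPM. The call was lost without LH replicate 1 or 3 and without any 1 of the HL replicates, at log2 fold changes of 1.22 to 1.43. It was also lost with all 62 libraries in 1 model (1.32), in replicates 1 and 2 alone (1.77) and in groups by library number, where the sign turned (-0.24). Those groups count LH replicates 3 and 4 of the titles as HL, so that turn is partly built in. The call was kept without LH replicate 2, the library that stood apart, where 9 genes were called (0.0784%).

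Among genes with a mean of at least 10 CPM, the smallest p-values on the higher side after it belonged to Eif4a2, Prmt1, Caml and Tspan4. Eif4a2, an RNA helicase of translation initiation, had 61.5, 122, 57.1 and 48.9 CPM in LH and 28.2, 27.9, 36.2 and 34.0 CPM in HL, with LH replicate 2 far above the rest. It holds small nucleolar RNA genes on the same strand. Its log2 fold change was 1.19 ± 0.25 (adjusted p = 0.48) and 0.79 without that library. Prmt1, the main arginine methyltransferase of mammalian cells, had 284.8, 250.4, 255.3 and 276.8 CPM in LH and 158, 177, 194 and 193 CPM in HL, at 0.55 ± 0.12 with adjusted p = 0.48. Caml, which helps insert tail-anchored proteins into the endoplasmic reticulum, had 16.0 to 21.3 CPM in LH and 7.93 to 11.1 CPM in HL (0.93 ± 0.20). Tspan4, a tetraspanin, had 69.3 to 142 CPM in LH and 39.1 to 67.4 CPM in HL (0.91 ± 0.21).

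On the lower side the smallest p-values belonged to Psap, Xdh, Spon2 and mt-Nd4. Psap, the precursor of the lysosomal saposins, had 153, 160, 231.8 and 168 CPM in LH and 391, 332, 253.9 and 301 CPM in HL, a log2 fold change of -0.84 ± 0.16 with an adjusted p = 0.43. Xdh, the enzyme that makes uric acid, had 43.4 to 62.7 CPM in LH and 73.8 to 94.2 CPM in HL (-0.69 ± 0.14, adjusted p = 0.43). Spon2, a secreted matrix protein, had 17.4, 21.1, 9.36 and 15.9 CPM in LH and 44.1, 51.1, 23.7 and 34.0 CPM in HL (-1.26 ± 0.25, adjusted p = 0.43). mt-Nd4, a mitochondrially encoded subunit of complex I, had 2743 to 3399 CPM in LH and 3652 to 5186 CPM in HL (-0.60 ± 0.14). In these 8 genes LH and HL did not overlap, and none passed the adjusted threshold in the edgeR fit of all 8 libraries with the gene filter and no further term, while DESeq2 passed each of them. A term for the collection step of the read summary added calls for Spon2 and Tspan4, and a replicate block one for Spon2. Without LH replicate 2 edgeR called Eif4a2, Prmt1, Tspan4, Psap, Spon2 and mt-Nd4, and without the gene filter Eif4a2, Tspan4, Psap and Spon2.

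**Figure D4:**
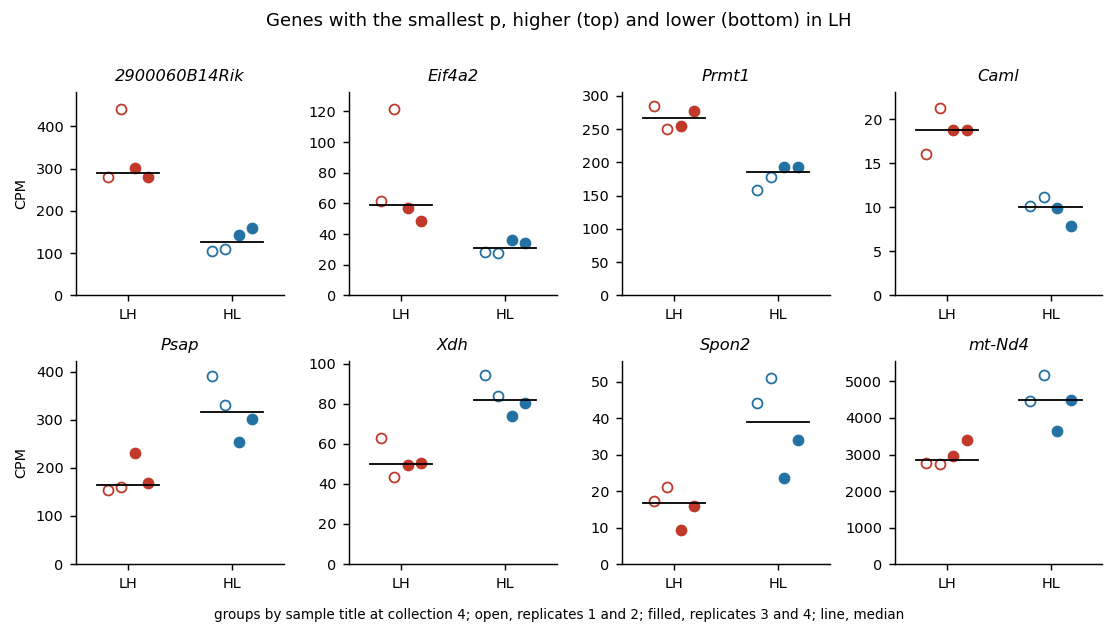
CPM, on linear axes from 0, of the called gene 2900060B14Rik, 3 further genes higher in LH and 4 genes lower in LH by the sample titles; open points are replicates 1 and 2, filled points replicates 3 and 4, and lines are medians. No LH point overlaps the HL points in any panel, and LH replicate 2 is the highest point of 2900060B14Rik and Eif4a2.

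Most tested genes of mitosis had a lower level in LH, without any passing the adjusted threshold. Of 44 tested genes of mitosis 39 had a negative log2 fold change (median -0.25), as 5833 of all 11627 genes did. At an unadjusted p under 0.05, 8 were lower, beside 2.76% of all genes, and none was higher. Ttk, the spindle checkpoint kinase, had 5.05, 6.04, 5.12 and 6.79 CPM in LH and 14, 9.12, 7.48 and 13 CPM in HL, without overlap (-0.92 ± 0.27, adjusted p = 0.71). Smc2, a condensin subunit (-0.52 ± 0.16), Cdca8, a subunit of the chromosomal passenger complex (-0.79 ± 0.26), and Prc1, which bundles spindle microtubules (-0.65 ± 0.21), had adjusted p-values of 0.74 to 0.75. Of 35 tested genes of DNA replication 4 were lower and none higher at that threshold, with 22 negative and 13 positive log2 fold changes (median -0.14), and none passed the adjusted one. Lig1, the replicative DNA ligase, had 73.3, 55.4, 68.4 and 64.3 CPM in LH and 99.4, 111, 85.2 and 90.9 CPM in HL, again without overlap (-0.57 ± 0.13, adjusted p = 0.48), and DESeq2 called it. Uhrf1, which maintains DNA methylation (-1.07 ± 0.35), Mcm5, a helicase subunit (-0.69 ± 0.28), and Fen1, the flap endonuclease (-0.71 ± 0.32), were the others. Without LH replicate 2, 9 mitosis genes (median -0.44) and 9 replication genes (median -0.27) were lower at an unadjusted p under 0.05, beside 4.41% of all genes. In bulk RNA fewer cells in these phases and less of these transcripts per cell cannot be told apart.

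Collagens had a negative median as well, which was smaller once LH replicate 2 was left out, and for other matrix genes the sign of the median turned without that library. Of 17 tested collagens 15 had a negative log2 fold change, as 5833 of all 11627 genes did, and 4 passed an unadjusted p of 0.05, all lower, beside 2.76% of all genes. Their median was -0.40, and without LH replicate 2 it was -0.19, with 1 collagen higher and 3 lower. Col1a1, the alpha 1 chain of type I collagen, had 6766, 3451, 6564 and 7095 CPM in LH and 9266, 8078, 8190 and 7662 CPM in HL, -0.49 ± 0.18 with adjusted p = 0.83. No LH library reached the lowest HL library, and replicate 2 was far below the other LH libraries. Col3a1, the type III chain, had 894 to 1533 CPM in LH and 1512 to 2304 CPM in HL (-0.41 ± 0.17). Col18a1, a basement membrane collagen (-0.70 ± 0.23), and Col5a3 (-0.44 ± 0.20) were the others. Of 34 tested matrix glycoproteins and proteoglycans 4 were lower, Spon2, Mgp, Nid1 and Hspg2, and none higher, with a median of -0.11. Without LH replicate 2 the median was 0.07, with 3 genes higher and 4 lower, beside 4.08% and 4.41% of all genes. Mgp, the inhibitor of matrix calcification, had 127, 140, 137 and 158 CPM in LH and 436, 261.4, 176 and 168 CPM in HL (-0.89 ± 0.23, adjusted p = 0.64), and edgeR called it without the gene filter.

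Genes of the insulin, glucose and lipid lists were read against 2.98% of all genes higher and 2.76% lower at an unadjusted p under 0.05. Of 25 tested genes of insulin and IGF signalling 2 were higher and 2 lower at that threshold, and 5 and 3 without LH replicate 2, where 4.08% and 4.41% of all genes were. Igf1, the growth factor, had 348, 471, 351 and 296 CPM in LH and 184, 303, 229.5 and 304 CPM in HL (0.52 ± 0.18, adjusted p = 0.81). Igfbp7, an IGF-binding protein (-0.53 ± 0.15), and Akt2, a kinase of the insulin pathway (-0.37 ± 0.15), were lower. Txnip, which glucose induces through the MondoA factor, had 43.7 to 66.3 CPM in LH and 39.1 to 66.7 CPM in HL (0.12 ± 0.17, adjusted p = 0.96), and none of the 5 tested genes of that list had an unadjusted p under 0.05. None of 12 tested fatty acid synthesis genes did either. Of 24 tested sterol genes 1 was higher, Dhcr7 (0.45 ± 0.17), and 3 were lower, among them Cyp51 (-0.29 ± 0.14). Of 18 tested glycolysis genes 1 was higher, Aldoc, at 0 to 2.09 CPM over the 8 libraries, and 1 was lower, Gapdh (-0.91 ± 0.22), which edgeR called without LH replicate 2. Only uniquely aligned reads were counted and Gapdh has many near-identical copies, so its level of 13.8 to 38.8 CPM is uncertain.

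H19, an imprinted transcript counted in the IGF list, moved with the library number. It had 7, 10, 8 and 14 counts in LH and 1, 0, 0 and 0 counts in HL. Over the whole series the 33 libraries of lowest number had 1 to 26 H19 counts (median 9) and the 29 of highest number had 0 to 2 (median 0), a boundary chosen after its values were seen. It falls within the libraries titled LH of the fifth collection, between replicates 3 and 4, and the groups compared lie on either side of it.

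The remaining lists gave mostly single genes. Of 20 tested immediate early genes 17 had a positive log2 fold change, as 5794 of all 11627 genes did. The list's median was 0.20, and 0.09 without LH replicate 2. Egr1, a transcription factor of the early response to serum, had 30.7, 32.0, 43.1 and 45.1 CPM in LH and 23.3, 15.7, 31.4 and 25.8 CPM in HL (0.64 ± 0.21, adjusted p = 0.75). It was the one gene of this list with an unadjusted p under 0.05, beside 2.98% of all genes higher. Without LH replicate 2 there were 3, each higher, beside 4.08% of all genes. Dusp1, a phosphatase that ends such responses, had 34.8, 217, 70.8 and 24.6 CPM in LH and 22.8, 83.7, 30.5 and 29.0 CPM in HL, with replicate 2 highest in both groups. Of 41 tested ribosomal protein genes 2 were lower, Rpl23 at -0.50 ± 0.14 among them, beside 2.76% of all genes, and without LH replicate 2 the number was 17, beside 4.41%. Of 21 tested lysosome genes Psap was lower and Tfeb, the lysosomal master regulator, was higher (0.49 ± 0.23). No gene of the lists for actin and SRF targets (18 tested), heat shock chaperones (13 tested) or glucocorticoid response (10 tested) had p under 0.05. Without LH replicate 2, 4 of the SRF list and 2 of the glucocorticoid list were higher, beside 4.08% of all genes. Lower were then 1 each of the heat shock and glucocorticoid lists, beside 4.41% of all genes. Of 7 other clock outputs tested, Por, the cytochrome P450 reductase (0.31 ± 0.13), and Tspan4 were higher and Leo1 (-0.43 ± 0.18) was lower. Without LH replicate 2, 2 of the 7 were higher and 3 lower, beside 4.08% and 4.41% of all genes. Of 13 tested metalloproteinases and inhibitors 2 were lower, beside 2.76% of all genes (median -0.24, and -0.06 without LH replicate 2). Of 35 tested nuclear genes of the respiratory chain 1 was higher, Cox4i1 (0.43 ± 0.14), and 2 were lower, beside 2.98% and 2.76% of all genes. Without LH replicate 2, 1 was higher and 9 were lower, beside 4.08% and 4.41% of all genes. Of 20 endoplasmic reticulum chaperones Herpud1 was higher (0.43 ± 0.14). Lists for collagen processing, cold-inducible RNA binding, ATF4, hypoxia, NRF2, mitochondrial DNA, TGF-beta, NF-kB and interferon each had at most 1 gene higher and 1 lower. Without LH replicate 2, 6 of the 18 tested interferon and MHC class I genes were lower and none higher, beside 4.41% and 4.08% of all genes.

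**Figure D5:**
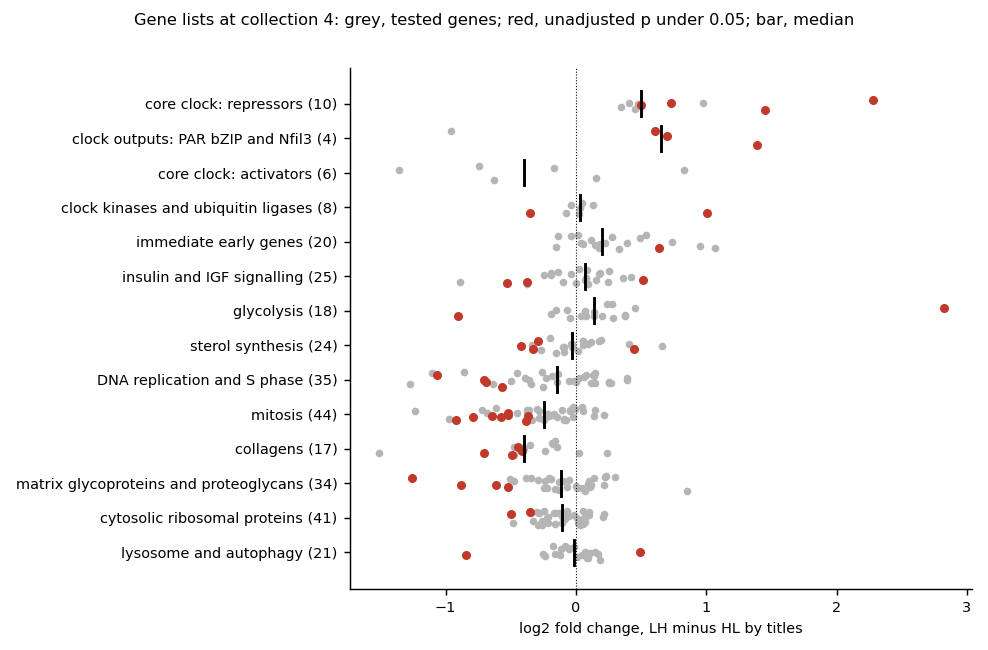
log2 fold change (LH minus HL by titles, horizontal axis) of the tested genes of 14 lists, with the number tested in brackets; red points have an unadjusted p under 0.05, bars are medians, and H19 is not drawn. The repressors of the core clock lie to the right of 0, and the medians of mitosis and collagens lie at -0.25 and -0.40.

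With the groups formed by the read summary's names instead, LH at collection 4 is 4 other libraries and HL at collection 4 is LH replicates 3 and 4 of the title comparison with 2 further libraries. No gene was called by edgeR, 18 genes (0.155%) had p under 0.01 and 196 of 11593 (1.69%) under 0.05. Nr1d1 had 88.9, 98.8, 86.4 and 77.6 CPM in LH so named and 76.7, 105, 68.6 and 88.4 CPM in HL so named, and the groups overlapped. Per2 had 3.45, 10.4, 7.04 and 0.919 CPM in LH and 6.71, 10.4, 12.5 and 4.2 CPM in HL, for a log2 fold change of -0.56 ± 0.54. Dbp had 80.2, 68.7, 89.5 and 33.8 CPM in LH and 79.0, 110, 78.5 and 45.1 CPM in HL, for -0.13 ± 0.27. The 10 repressors had a median log2 fold change of -0.01, the mitosis genes of -0.23 and the collagens of -0.04 in these groups.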

How the data were processed

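Total RNA of PER2::LUC sv mouse fibroblasts was sequenced by 3′DGE, in which a transcript is counted from reads at its 3′ end. The authors deposited raw counts per gene for each sequencing run, without normalization. The submitters' processing notes name bcl2fastq, STAR 2.6.0a, HTSeq 0.9.1 and mm10, while annotation release and strand use were not given in the sources used here. Runs of a library were summed. Summary lines without a gene were excluded from library sizes, with 19.1% to 28.95% of reads on no feature and 0.336% to 0.420% ambiguous in the 8 libraries. Of 31053 genes 31011 matched GENCODE M21, used for symbols, positions and overlaps. The groups are those of the sample titles.

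Genes with at least 1 CPM in 3 of the 8 libraries were tested with edgeR 4.0.16 (R 4.3.3), TMM scaling and the quasi-likelihood test, two-sided, with Benjamini-Hochberg adjustment over all genes tested and a threshold of 0.05. Standard errors were taken as the size of the log2 fold change divided by the square root of F. Unadjusted thresholds of 0.01 and 0.05 were used for counts. DESeq2 1.42.0 was an alternative, with missing adjusted p-values left empty. Other alternatives changed scaling, gene filter, depth, sequencing run, grouping, replicates and model terms, and 3 fits between replicate pairs were added after the data were seen. The fits were first run on simulated counts with known changes and a single dispersion, without a library that stands apart. Python 3.11.15 with matplotlib 3.10.9 drew the figures.

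Named genes are the 15 on each side with the smallest p at a mean of at least 10 CPM, the called genes, the tested clock genes and up to 4 genes of smallest p in each list; other clock-related genes, and H19 over all libraries, were looked at after their values were seen. Not every gene of this rule is printed. The comparison and the gene lists were chosen with earlier results of these data known. Counting noise limits genes near 1 CPM.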

Additional observations from a re-analysis of the deposited data

Results flagged for a closer look

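In 162 groups of 4 libraries looked at, over the genes followed and 3 library measures, 8 held a library farther from the others than the 95% limit of Dixon's test, about the 1 in 20 that chance gives. LH replicate 2 was such a library for 2900060B14Rik, at 442 CPM against 279.6 to 301 CPM in the others, and for Col1a1, at 3451 CPM against 6564 to 7095 CPM. HL replicate 2 was one for Cry1, at 19.5 CPM against 6.85 to 8.02 CPM, for Leo1, a subunit of the PAF1 complex, at 39.4 CPM against 27.6 to 28.9 CPM, and for Dusp1, at 83.7 CPM against 22.8 to 30.5 CPM. HL replicate 3 was one for Cacng7, a calcium channel subunit gene, at 77.5 CPM against 61.6 to 63.8 CPM. HL replicate 1 was one for Mex3b, an RNA-binding protein gene, at 16.4 CPM against 11.2 to 12.0 CPM. LH replicate 4 had 8101013 counts against 5627529 to 5741233 in the other LH libraries.

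For Nr1d1 the difference between LH and HL was itself different between the replicate pairs. It was lower in replicates 3 and 4 than in replicates 1 and 2 by a log2 value of -2.95, with an edgeR adjusted p of 0.00577.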

How the results depend on the processing

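Against 1 called gene and 1.28% of tested genes at p under 0.01, the number called stayed at 1 with DESeq2 size factors, library totals alone, the filter over all 62 libraries, thinning and each sequencing run alone, and the share at p under 0.01 was then 1.16% to 1.28%. Without a gene filter the values were 6 and 1.36%, with DESeq2 15 and 1.81%, with all 62 libraries in 1 model 0 and 0.722%, and with groups by library number 0 and 0.155%. The replicate block gave 2 and 1.43%, with Spon2 added, and a term for the collection step of the read summary gave 3. Deviations from the group mean had correlations of -0.138, 0.319, -0.0322 and 0.0821 in same-numbered libraries and of -0.307 to 0.274 in differently numbered ones. The value for replicate 2 was the highest of all, and these few values cannot decide whether the numbers pair the samples. Replicates 1 and 2 alone gave 2 and 0.586%, and replicates 3 and 4 alone 14 and 2.24%. Leaving out 1 replicate gave 0 to 9 calls and 0.669% to 2.61% at p under 0.01, the lowest without HL replicate 1 and the highest, with the 9 calls, without LH replicate 2.

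Of 78 genes followed, giving 1706 values, 1614 kept their sign and their side of the adjusted threshold, 8 lost the call, 35 gained it and 49 changed sign, 42 of these in groups by library number. There the log2 fold changes that were positive by titles were 2900060B14Rik -0.24, Prmt1 -0.22, Caml -0.27, Tspan4 -0.43, Xrcc4 -0.19, Vps45 -0.12, Fut11 -0.033, Ginm1 -0.048, Cacng7 -0.36, Slc19a1 -0.26, Per1 -0.070, Per2 -0.56, Per3 -0.23, Cry2 -0.15, Bhlhe41 -0.049, Dbp -0.13, Tef -0.094, Btrc -0.45, Por -0.051, Txnip -0.29, Dhcr7 -0.15, Herpud1 -0.012, Cox4i1 -0.10. Those that were negative by titles were Psap 0.34, mt-Nd4 0.11, Gapdh 0.23, Pomp 0.073, Tmeff1 0.36, Lman2l 0.35, Cyb5r3 0.0042, Tnfrsf10b 0.41, Rpl23 0.22, Trp53inp2 0.085, Clock 0.060, Arntl 1.21, Csnk1d 0.13, Leo1 0.12, Igfbp7 0.032, Akt2 0.19, Cyp51 0.029, Col18a1 0.18, Nid1 0.22. In replicates 1 and 2 alone the sign changed for Rora -0.040, Cry1 -0.48, Txnip -0.24. In replicates 3 and 4 alone it changed for Nr1d1 -0.77, Nfil3 0.33, Hspg2 0.095, and in the second sequencing run alone for Arntl2 -0.50. The groups by library number take LH replicates 3 and 4 of the titles as HL and otherwise hold other libraries. Sign changes there are thus partly built in, more so as many genes followed were picked for a small p by titles. The single settings of pairs and runs hold fewer reads or libraries. The cause of the other changes was not tested.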
